A study of Mus musculus with 9 samples.

Results

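Complement components and receptors were followed across 9 bead arrays of cultured mouse microglia. The set was 9 genes, C1qa, C1qb, C1qc, C3, C4b, Cfb, Serping1, C3ar1 and C5ar1, and its members were all probes to which the platform annotation gives one of these symbols. They came to 11 of the 45281 probes and covered 8 of the 9 genes, out of 19057 genes named on the array. C3 was not analysed here because no probe in the annotation carries its symbol, and the central component of the cascade is therefore missing from what follows.

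RNA came from primary microglia, which are the brain's own macrophages, isolated from cortical tissue of pups of the C57BL/6J strain at 1 to 5 days of age. All were CB2+/+, with the cannabinoid receptor 2 gene intact. The 3 groups had 3 arrays each: cells exposed for 16 h to bacterial lipopolysaccharide (LPS) together with 20 ng/ml interferon gamma (IFNγ), cells exposed for 48 h to interleukin-4 (IL-4) at 100 U/ml, and unstimulated cells. The unit of the LPS dose is incomplete in the labels and no culture time is given for the unstimulated cells, so stimulus and time in culture cannot be told apart. The labels do not say whether the replicates came from separate cultures, so the p-values below cover only differences from sample to sample, which may be technical.

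Complement is a cascade of plasma proteins. The classical pathway begins when C1q, built from the chains encoded by C1qa, C1qb and C1qc, binds a surface and its partner proteases cleave C4 and C2. The alternative pathway amplifies the cascade through factor B, and both converge on C3, whose fragments mark a surface for uptake and act on receptors. In the brain, microglia are the main source of C1q, and C1q and C3 tag synapses that microglia remove during development.

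The C1q genes lie next to one another, in the order C1qb, C1qc, C1qa in the reference gene table, so their promoters are shown. C1qb and C1qc are the C1q genes with an entry in the promoter table. The 250 bases before the annotated start of each are printed from RefSeq (GRCm38.p6), 5′ to 3′ on the gene's own strand, the minus strand, at chr4:136886201-136886450 for C1qb and chr4:136892915-136893164 for C1qc. Capitals mark AGGAAG, the core letters bound by the myeloid factor PU.1, on either strand.
C1qb: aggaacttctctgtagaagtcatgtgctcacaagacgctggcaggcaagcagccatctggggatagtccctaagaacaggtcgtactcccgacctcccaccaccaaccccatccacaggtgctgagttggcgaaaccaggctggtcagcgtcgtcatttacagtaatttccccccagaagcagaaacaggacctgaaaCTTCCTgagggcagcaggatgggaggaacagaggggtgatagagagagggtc
C1qc: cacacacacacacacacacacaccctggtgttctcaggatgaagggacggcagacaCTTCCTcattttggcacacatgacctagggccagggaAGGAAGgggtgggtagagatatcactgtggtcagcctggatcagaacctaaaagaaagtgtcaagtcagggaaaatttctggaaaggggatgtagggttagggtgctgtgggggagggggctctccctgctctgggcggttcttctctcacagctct
AGGAAG or its reverse complement occurred once before C1qb, 52 to 47 bases from the start. It occurred at 2 places before C1qc, 194 to 189 and 157 to 152 bases from the start. A match is a string of letters and not a measured site: 29.5% of 32851 such windows in the table held this one. Letters of an interferon gamma activated site (TTCNNNGAA, in 7.02% of windows), of an interferon-stimulated response element (GAAA and GAAA parted by 2 bases, in 2.98%) and of a composite ETS and IRF element (GGAA and GAAA parted by 2 bases, in 2.3%) were searched on both strands too. None of these was in the windows of the 5 listed genes with an entry, C1qb, C1qc, C3ar1, C5ar1 and C3. Serping1, Cfb, C4b and C1qa had no entry.

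On 8 arrays the mean intensity was 310.9 to 378.5 and 14475 to 16435 probes were detected (detection p under 0.05). LPS + IFNγ replicate 2 stood apart, with a mean intensity of 111.9, 6208 detected probes and a mean correlation with its own group of 0.763, against 0.873 and 0.871 for LPS + IFNγ replicates 1 and 3. Its lowest detected normalized value was 7.34 on the log2 scale, against 4.74 to 4.92 on the other arrays, so a lower level could not be measured on it. Of 12 microglia markers with a probe, 5 were detected on all 3 LPS + IFNγ arrays, 11 on all 3 IL-4 arrays and 11 on all 3 unstimulated arrays. P2ry12 was detected on no LPS + IFNγ array and Siglech on no unstimulated array. The microglia markers' summed level on the linear scale was 8782 to 10240 with LPS + IFNγ, 32920 to 36750 with IL-4 and 38800 to 52950 without a stimulus. Fewer cells of a type and less RNA per cell cannot be told apart in such bulk RNA. Slide 1 held LPS + IFNγ replicates 1 and 2 and IL-4 replicates 1 and 2, and slide 2 held replicate 3 of each of these groups and all unstimulated arrays. Values below are quantile-normalized log2 intensities, and groups were compared with limma's moderated test, adjusted by Benjamini-Hochberg over the 16895 probes kept, with a threshold of 0.05. A probe was kept when it was detected on at least 3 of the 9 arrays. Both stimuli were set against the same unstimulated arrays.

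The complement inhibitor gene Serping1 stood out. It rose with LPS + IFNγ and was at background in nearly all other arrays, while none of the other 6 member genes kept passed the test in any comparison. In LPS + IFNγ cells against unstimulated cells 1 of 7 member genes rose and 0 fell. Over all probes 15.7% passed, 5.33% higher and 10.4% lower. Of the passing probes 33.9% were higher, a share that was 2.16% with median centring, 58.1% over probes detected on all 9 arrays and 60.1% with undetected values raised. The median log2 difference of the 7 genes was -0.56, against -0.22 over all probes. In IL-4 cells against unstimulated cells 0 of 7 passed in limma's test, 0 also at an unadjusted p under 0.05. Of all probes 0.0592%, 10 in number, passed there, 0.0533% higher and 0.00592% lower. With replicate number as a block, which the arrays of these 2 groups share, 0 members and 5 probes passed. The median was 0.01 for the members and 0 for all probes. In LPS + IFNγ cells against IL-4 cells 1 of 7 rose and 0 fell. Over all probes 14.6% passed, 4.84% higher and 9.74% lower, and the medians were 0.21 and -0.23. In limma's F-test over the 3 groups the adjusted p was 2.89e-05 for Serping1 and 0.166 to 0.642 for the other 6.

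**Figure D1:**
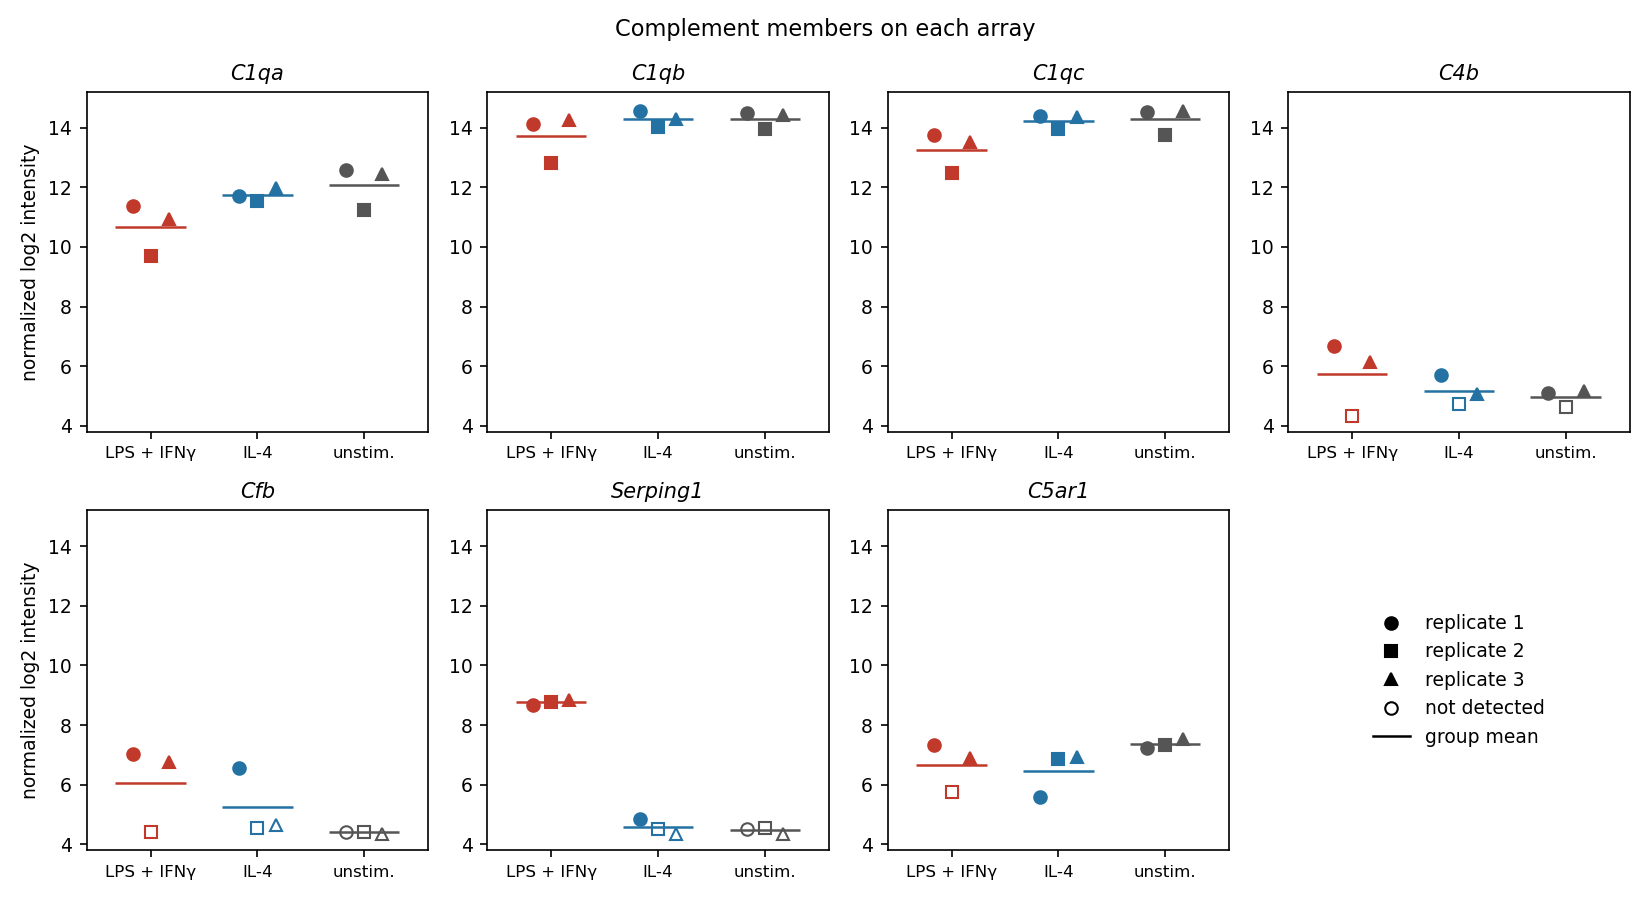
Normalized log2 intensity of each member's main probe on every array (points, shaped by replicate), by group from LPS + IFNγ to IL-4 to unstimulated, with group means as bars and undetected values as open symbols. Serping1 lies at 8.68 to 8.85 on the 3 LPS + IFNγ arrays and at 4.35 to 4.84 on the other 6 arrays.

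C1qa, which encodes the A chain of C1q, had normalized log2 values of 11.36, 9.71 and 10.95 in LPS + IFNγ replicates 1 to 3, 11.72, 11.55 and 11.98 in IL-4 replicates 1 to 3, and 12.58, 11.25 and 12.44 in unstimulated replicates 1 to 3. It was detected on every array. Each LPS + IFNγ array lay below each IL-4 array, and LPS + IFNγ replicate 1 was above unstimulated replicate 2, so those groups overlapped. The means were 10.67 ± 0.86 with LPS + IFNγ, 11.75 ± 0.22 with IL-4 and 12.09 ± 0.73 in unstimulated cells (SD, n = 3 each). The log2 difference was -1.42 ± 0.49 (SE) for LPS + IFNγ minus unstimulated, with a 95% interval of -2.52 to -0.31 and a limma adjusted p of 0.0879. It was -1.08 ± 0.49 for LPS + IFNγ minus IL-4 (interval -2.18 to 0.03, limma adjusted p = 0.187).

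C1qb, the B chain gene, had values of 14.14, 12.81 and 14.25 in LPS + IFNγ replicates 1 to 3, 14.58, 14.03 and 14.30 in the IL-4 replicates, and 14.50, 13.95 and 14.43 in the unstimulated replicates. Only the weak LPS + IFNγ replicate 2 lay apart, and the other 8 arrays spanned 13.95 to 14.58. The log2 difference of LPS + IFNγ minus unstimulated was -0.56 ± 0.39 (interval -1.46 to 0.34, limma adjusted p = 0.378), and without LPS + IFNγ replicate 2 it was -0.07 (adjusted p = 0.839).

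C1qc, the C chain gene, had values of 13.76, 12.47 and 13.54 in LPS + IFNγ replicates 1 to 3, 14.40, 13.97 and 14.35 in the IL-4 replicates, and 14.52, 13.76 and 14.58 in the unstimulated replicates. All LPS + IFNγ arrays lay below all IL-4 arrays, and LPS + IFNγ replicate 1 was level with unstimulated replicate 2. The log2 difference was -1.03 ± 0.38 for LPS + IFNγ minus unstimulated (interval -1.90 to -0.16, limma adjusted p = 0.109) and -0.98 ± 0.38 for LPS + IFNγ minus IL-4 (interval -1.85 to -0.12, adjusted p = 0.127).

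The 3 chains thus had their lowest value on the same array, LPS + IFNγ replicate 2. Its raw intensities were 137.9 for C1qa, 640.3 for C1qb and 501.9 for C1qc. On LPS + IFNγ replicates 1 and 3 they were 3942 and 2955 for C1qa, 24210 and 24620 for C1qb, and 19670 and 17360 for C1qc. Without that array the log2 difference of LPS + IFNγ minus unstimulated was -0.92 for C1qa (limma adjusted p = 0.0942) and -0.56 for C1qc (adjusted p = 0.125). Within slide 2, where 1 LPS + IFNγ array met 3 unstimulated arrays, it was -1.14 for C1qa, -0.04 for C1qb and -0.75 for C1qc, and none passed. In LPS + IFNγ cells against unstimulated cells 8 of the 12 microglia markers fell, with a median log2 difference of -2.57 over the list, and their part in the C1q values was not tested.

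From low to high the group means ran LPS + IFNγ, IL-4, unstimulated for C1qa and C1qc, and neighbours in that order did not differ past the threshold. For C1qb the IL-4 mean of 14.30 and the unstimulated mean of 14.29 were level, with LPS + IFNγ at 13.73. IL-4 minus unstimulated was -0.34 for C1qa (95% interval -1.45 to 0.77), 0.01 for C1qb (-0.89 to 0.90) and -0.05 for C1qc (-0.91 to 0.82). Pairing the arrays by replicate number, IL-4 minus unstimulated was -0.86, 0.30 and -0.45 for C1qa, 0.08, 0.07 and -0.14 for C1qb and -0.12, 0.21 and -0.23 for C1qc. The sign differed between pairs for each chain.

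**Figure D2:**
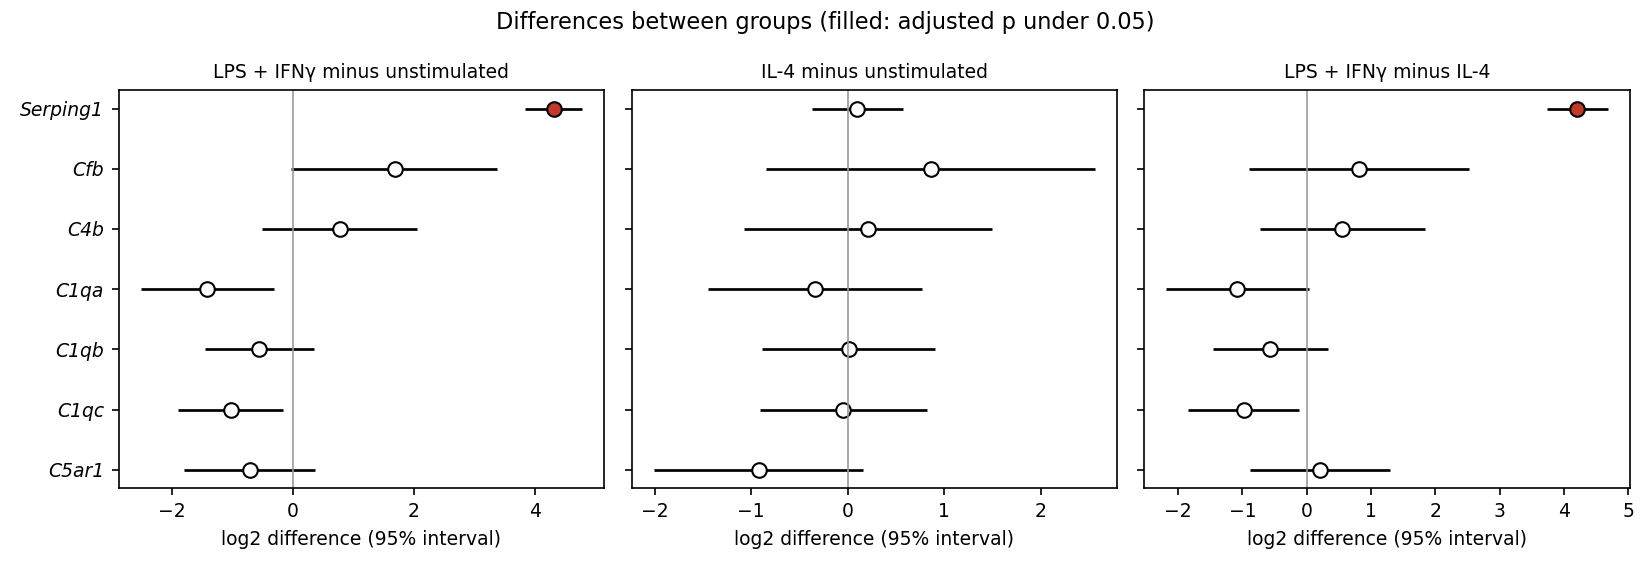
Log2 difference of each member gene kept (points) with its 95% interval (lines) in the 3 comparisons, from limma's model of all 9 arrays. Serping1 is at 4.31 for LPS + IFNγ minus unstimulated and 4.21 for LPS + IFNγ minus IL-4, and the intervals of C1qb, C4b, Cfb and C5ar1 include 0 in every comparison.

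C4b encodes the mouse complement component C4, which the C1 proteases cleave. Its main probe had values of 6.69, 4.34 and 6.13 in LPS + IFNγ replicates 1 to 3, 5.70, 4.72 and 5.08 in the IL-4 replicates, and 5.09, 4.62 and 5.16 in the unstimulated replicates. The second replicate of every group was undetected. LPS + IFNγ replicates 1 and 3 were above the 7 other arrays, and LPS + IFNγ replicate 2 was the lowest of all 9. The log2 difference of LPS + IFNγ minus unstimulated was 0.77 ± 0.56 (interval -0.51 to 2.05, limma adjusted p = 0.396). Without LPS + IFNγ replicate 2 it was 1.63 (adjusted p = 0.00728), and against IL-4 cells 1.39 (adjusted p = 0.0161). The other 2 C4b probes were detected on no array.

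C4a is a near-identical neighbour of C4b in mice, so a probe for either may bind both transcripts and the assignment is uncertain. The main C4a probe had 6.84, 4.45 and 6.78 in LPS + IFNγ replicates 1 to 3, 6.02, 4.37 and 4.55 in the IL-4 replicates, and 4.94, 4.97 and 5.40 in the unstimulated replicates. It too was high on LPS + IFNγ replicates 1 and 3 and undetected on LPS + IFNγ replicate 2, with a difference from unstimulated cells of 0.92 (limma adjusted p = 0.397) over all arrays and 1.90 (adjusted p = 0.0156) without that array. A second C4a probe passed over all arrays, at 1.49 ± 0.39 (adjusted p = 0.0322), with 6.30, 5.83 and 6.19 with LPS + IFNγ, the second of these undetected, and 4.32, 4.43 and 5.10 in unstimulated cells. The remaining one was at 0.03 (adjusted p = 0.951). C4a was singled out after its values were seen.

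Cfb encodes factor B, the protease precursor of the alternative pathway. Its values were 7.04, 4.39 and 6.77 in LPS + IFNγ replicates 1 to 3, 6.56, 4.55 and 4.64 in the IL-4 replicates, and 4.42, 4.42 and 4.34 in the unstimulated replicates. It was detected on LPS + IFNγ replicates 1 and 3 and on IL-4 replicate 1, and on no unstimulated array. Its probe was kept only through these arrays, where it was high, so every p-value given for Cfb carries that selection. Raw intensities were 238.6, 98.36 and 213 with LPS + IFNγ, 217.7, 123.2 and 131.2 with IL-4, and 118.3, 120.2 and 115.9 in unstimulated cells. The fitted difference of LPS + IFNγ minus unstimulated was 1.68 ± 0.75 (interval -0.03 to 3.38, limma adjusted p = 0.177). The LPS + IFNγ mean includes the undetected value on replicate 2 and the unstimulated mean holds undetected values alone, so neither is a measured level.

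That call turned on the weak array, which could not have shown a level of 7.04 or 6.77. Without LPS + IFNγ replicate 2, Cfb was at least 5.27-fold higher with LPS + IFNγ than in unstimulated cells on the background-corrected scale. That bound counts against the lowest detected level of each unstimulated array and is no floor under other processing. The fitted difference was 2.79 (limma adjusted p = 0.00608), and 31.5% of all probes passed. From IL-4 cells the fitted difference was 1.84 (adjusted p = 0.039), where 29.6% of all probes passed. In the deposited log2 table LPS + IFNγ replicates 1 and 3 had 7.93 and 7.75, and the unstimulated replicates 6.87, 6.87 and 6.82. Over the 22 alternatives the difference from unstimulated cells ran from 0.65 to 2.79. Within slide 2, Cfb was detected on LPS + IFNγ replicate 3 and on no unstimulated array. C4b was 1.18 higher there (adjusted p = 0.0391), with 1 LPS + IFNγ array that is assumed to vary like the others. With slide as a block and the weak array left out, the fitted difference from unstimulated cells was 2.44 for Cfb (adjusted p = 0.0278) and 1.45 for C4b (adjusted p = 0.0332).

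IL-4 replicate 1 held the high IL-4 values of Cfb, C4b and C4a. Cfb was undetected on the other 2 IL-4 arrays. This array also differed in markers of other cells. Of 10 astrocyte markers 6 were detected on it. On IL-4 replicates 2 and 3 the number was 1 and 2, and on unstimulated replicates 1 to 3 it was 3, 0 and 5. Their summed level was 1933 on IL-4 replicate 1, against 230.9 and 236.8 on the other IL-4 arrays, 296.4 to 435.5 on LPS + IFNγ arrays and 223.1 to 302.9 on unstimulated arrays. The astrocyte connexin gene Gja1 was at 10.68 there, and at 4.38 and 5.14 on IL-4 replicates 2 and 3. Aqp4, Gjb6, S100b and Sox9 were detected on no IL-4 array. Of 10 endothelial, mural and fibroblast markers 6 were detected on it, with a summed level of 3986, against 3428 and 3539 on the other IL-4 arrays. The 6 border macrophage markers summed to 24250 there, against 10920 and 12800 on the other IL-4 arrays. On unstimulated replicates 1 to 3 they summed to 17090, 6285 and 9697. Mrc1, a gene of that list, was at 13.86 on IL-4 replicate 1, against 12.37 and 12.76 on the other IL-4 arrays. The collagen gene Col1a1 was at 7.93 on IL-4 replicate 1, against 4.38 and 4.35, both undetected, on the other IL-4 arrays. The part of such cells in the Cfb and C4b values was not tested. In LPS + IFNγ replicates 1 and 3, where Cfb and C4b were highest, 2 of the 10 astrocyte markers were detected on each, and the summed levels were 313.2 and 296.4. Of the 10 endothelial, mural and fibroblast markers 5 were detected on LPS + IFNγ replicate 1 (Pecam1, Cdh5, Flt1, Col1a2 and Dcn) and 2 on replicate 3, with summed levels of 724.8 and 641.8.

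**Figure D3:**
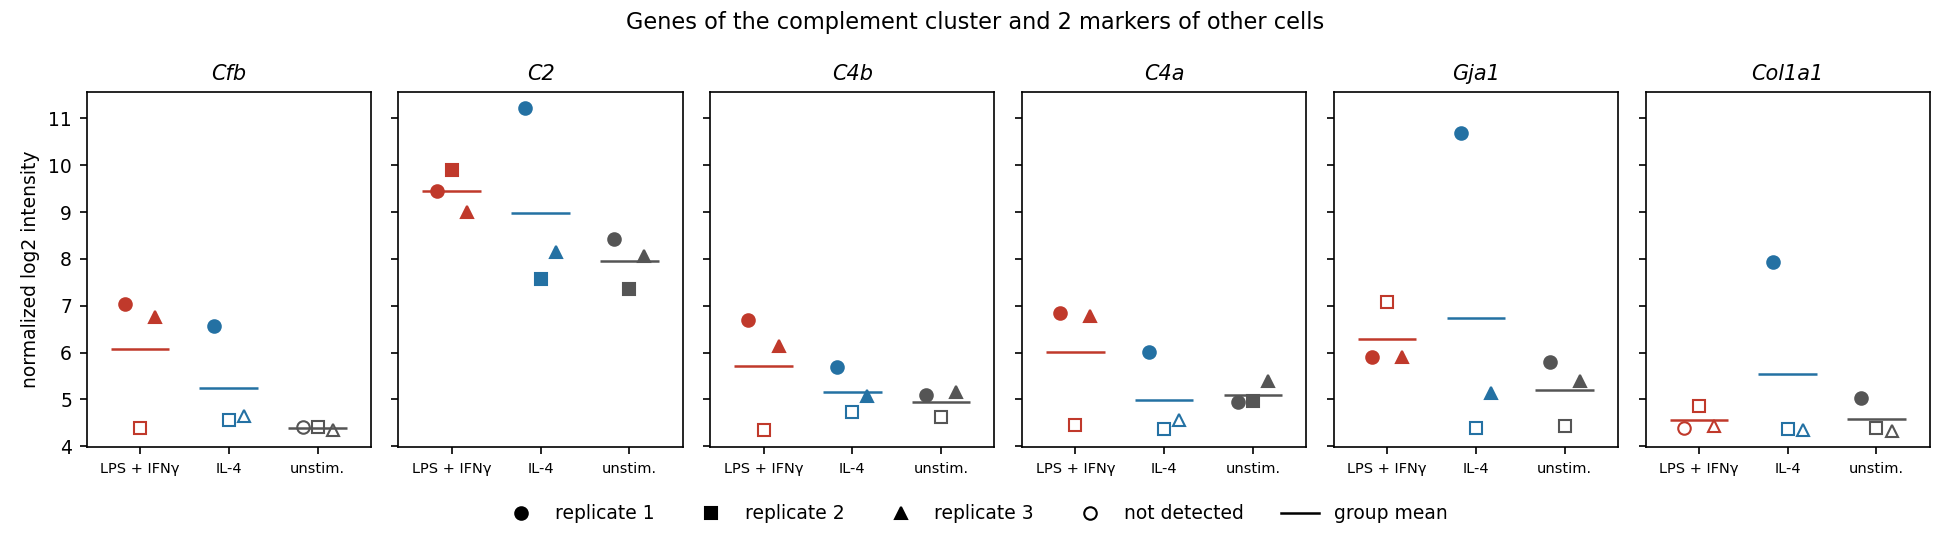
Normalized log2 intensity of Cfb, C2, C4b and C4a and of Gja1 and Col1a1, markers of other cells, on each array (points, open where undetected), in the order LPS + IFNγ, IL-4, unstimulated. Cfb is at 7.04 and 6.77 on LPS + IFNγ replicates 1 and 3 and at 6.56 on IL-4 replicate 1, the array on which Gja1 is at 10.68 and Col1a1 at 7.93.

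C2, the gene beside Cfb, encodes the classical pathway's counterpart of factor B, and it was singled out after its values were seen. It had 9.45, 9.89 and 8.995 in LPS + IFNγ replicates 1 to 3, 11.22, 7.56 and 8.14 in the IL-4 replicates, and 8.42, 7.36 and 8.06 in the unstimulated replicates. All LPS + IFNγ arrays were above all unstimulated ones, and IL-4 replicate 1 was the highest of all. The difference was 1.50 ± 0.84 for LPS + IFNγ minus unstimulated (limma adjusted p = 0.277) and 0.47 ± 0.84 for LPS + IFNγ minus IL-4 (adjusted p = 0.733). Without IL-4 replicate 1 these were 1.49 (adjusted p = 0.0335) and 1.58 (adjusted p = 0.0455). That array enters the first through the shared estimate of spread and the second through the IL-4 mean as well. In each of these comparisons C2 passed in 2 of 23 alternatives, each of them leaving out IL-4 replicate 1. Over the alternatives the difference ran from 0.03 to 1.74 against unstimulated cells (limma adjusted p up to 0.987). Against IL-4 cells it ran from -1.04 to 1.58 (adjusted p up to 0.982).

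With both LPS + IFNγ replicate 2 and IL-4 replicate 1 left out, an alternative chosen after seeing the data, Cfb was at least 5.26-fold (limma adjusted p = 1.79e-05) and C4b 1.63 on the log2 scale (adjusted p = 0.00215) above unstimulated cells. Against the remaining IL-4 arrays, on which Cfb was undetected, Cfb was at least 5.27-fold (adjusted p = 5.14e-05) and C4b 1.69 on the log2 scale (adjusted p = 0.00323) higher. The fold bounds hold on the background-corrected scale alone. Cfb was undetected on the LPS + IFNγ array left out, and the IL-4 array left out was the only one on which it was detected. Leaving them out itself set the groups apart, so these p-values are no evidence of a difference. Over all arrays Cfb was 0.82 above IL-4 cells (adjusted p = 0.496) and C4b 0.55 (adjusted p = 0.539). Without these arrays 3 of 7 member genes passed in each of these comparisons, Serping1, Cfb and C4b. In the same fits 35.6% of all probes passed against unstimulated cells and 31.6% against IL-4 cells, so the count of members lies near the general rate.

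Serping1 encodes C1 inhibitor, a serpin that inactivates the proteases bound to C1q. Its main probe had values of 8.68, 8.78 and 8.85 in LPS + IFNγ replicates 1 to 3, 4.84, 4.50 and 4.35 in the IL-4 replicates, and 4.50, 4.54 and 4.35 in the unstimulated replicates. It was detected on all LPS + IFNγ arrays, on IL-4 replicate 1 among the IL-4 arrays, and on no unstimulated array. The LPS + IFNγ arrays lay far above the other 6, with no overlap. The means were 8.77 ± 0.09 with LPS + IFNγ, 4.56 ± 0.25 with IL-4 and 4.46 ± 0.10 in unstimulated cells (SD, n = 3 each).

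Serping1 was at least 16.1-fold higher in LPS + IFNγ cells than in unstimulated cells on the background-corrected scale. That bound counts against the lowest detected level of each unstimulated array and is no floor under other processing. In the deposited log2 table the LPS + IFNγ replicates had 9.10, 9.19 and 9.26 and the unstimulated replicates 6.92, 6.94 and 6.84. Over the 22 alternatives the log2 difference ran from 2.29 to 4.76. The fitted log2 difference was 4.31 ± 0.21 (interval 3.83 to 4.78, limma adjusted p = 2.57e-05). Against IL-4 cells it was 4.21 ± 0.21 (interval 3.73 to 4.68, adjusted p = 3.12e-05). A second Serping1 probe had 8.46, 8.83 and 8.83 in LPS + IFNγ replicates 1 to 3 and was detected on no other array. That probe was kept only because of the LPS + IFNγ arrays, so its test is not given. The main probe was detected on IL-4 replicate 1 besides, but it too was kept only through the LPS + IFNγ arrays. Its p-values above carry that selection. For the main probe, limma's test without any filter on detection gave the same difference with an adjusted p of 3.53e-05. IL-4 minus unstimulated was 0.10 (interval -0.37 to 0.57), both groups near background.

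The raw intensity of Serping1 was 591.7, 117.8 and 684.1 in LPS + IFNγ replicates 1 to 3, 133.8, 121.6 and 119.2 in the IL-4 replicates, and 121.4, 125.2 and 116.1 in the unstimulated replicates. On the weak LPS + IFNγ replicate 2 the raw value was thus no higher than in unstimulated cells, and the normalized one follows from its rank among that array's probes, where its detection p was 0.00427. Without that array the difference from unstimulated cells was 4.76 (limma adjusted p = 3.63e-06). Within slide 2 it was 4.39 (adjusted p = 0.000428), and with slide as a block 4.24 (adjusted p = 0.000768). Centring arrays on their medians in place of quantile normalization gave 3.30 with an adjusted p of 0.0726, and 3.19 (adjusted p = 0.082) against IL-4 cells. Within slide 1, with 2 arrays a group, the difference from IL-4 cells was 4.06 (adjusted p = 0.169), where no probe of the array passed.

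**Figure D4:**
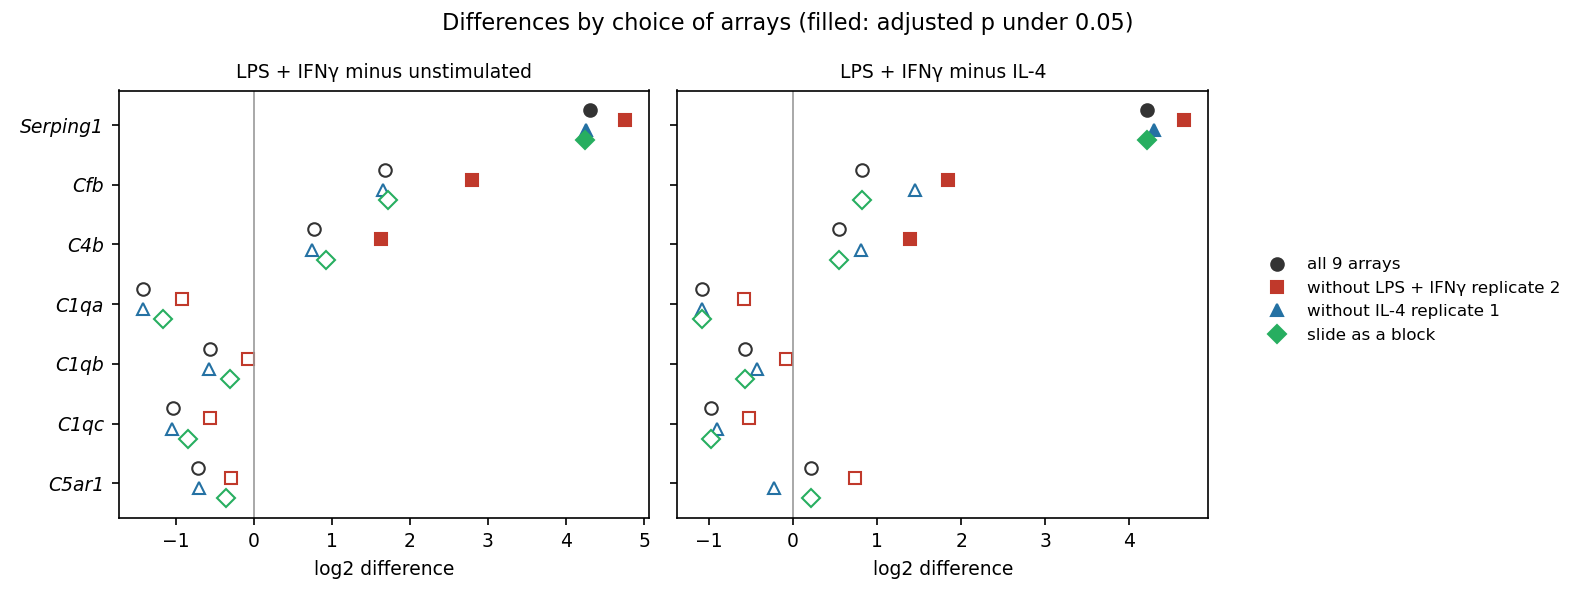
Log2 difference of each member gene for LPS + IFNγ minus unstimulated (left) and LPS + IFNγ minus IL-4 (right) over all 9 arrays, without LPS + IFNγ replicate 2, without IL-4 replicate 1 and with slide as a block (symbols, filled where limma's adjusted p is under 0.05). Cfb moves between 1.68 over all arrays and 2.79 without LPS + IFNγ replicate 2 on the left, and Serping1 passes at every symbol.

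The receptors for the cleaved fragments of C3 and C5 did not pass in any comparison. C3ar1, the C3a receptor gene, was detected on 1 array alone, IL-4 replicate 2, at 4.91, and its probe was not kept for testing. On the weak LPS + IFNγ replicate 2 its value of 5.84 was undetected. No difference in C3ar1 was measurable with this probe.

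C5ar1, the C5a receptor gene, had values of 7.32, 5.75 and 6.90 in LPS + IFNγ replicates 1 to 3, 5.57, 6.85 and 6.93 in the IL-4 replicates, and 7.24, 7.33 and 7.54 in the unstimulated replicates. It was undetected on LPS + IFNγ replicate 2. All IL-4 arrays lay below all unstimulated ones, as they did, one way or the other, for 16.7% of all probes. The difference of IL-4 minus unstimulated was -0.92 ± 0.48 (interval -2.01 to 0.16, limma adjusted p = 1), with -1.67, -0.48 and -0.61 in the pairs of equal replicate number. The difference of LPS + IFNγ minus unstimulated was -0.71 ± 0.48 (adjusted p = 0.355) and was -0.29 without the weak array. LPS + IFNγ minus IL-4 was 0.21 (interval -0.88 to 1.29).

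Groups that did not overlap were no more than a description here. They were found for 1 of 7 members in LPS + IFNγ against unstimulated cells (Serping1), where 36.9% of all probes had them. For IL-4 against unstimulated cells it was 2 of 7 (C5ar1 and Cfb), where 16.7% of all probes had them. For LPS + IFNγ against IL-4 cells it was 3 of 7 (C1qa, C1qc and Serping1), where 35% of all probes had them. For Cfb, 2 of the 3 IL-4 values behind this were undetected.

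Of 52 other complement genes listed, 45 had a probe and 19 were kept. In LPS + IFNγ cells against unstimulated cells 0 rose and 2 fell, a share of the 19 near the 10.4% of all probes that were lower, so the count is not particular to these genes. Their median log2 difference was -0.63, against -0.22 over all probes. In IL-4 cells against unstimulated cells 0 of 19 passed in limma's test and 2 did at an unadjusted p under 0.05, with a median of -0.12. In LPS + IFNγ cells against IL-4 cells 0 rose and 3 fell, where 9.74% of all probes were lower, with a median of -0.26 against -0.23 over all probes.

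The 3 genes that fell were Colec12, Lrp1 and Fcna. Colec12, a collectin on the cell surface, had 5.00, 4.95 and 4.68 in LPS + IFNγ replicates 1 to 3, the last 2 undetected, 6.08, 6.50 and 6.77 in the IL-4 replicates, and 7.48, 7.43 and 7.56 in the unstimulated replicates. The 3 groups did not overlap. The difference was -2.61 ± 0.23 for LPS + IFNγ minus unstimulated (limma adjusted p = 0.000297) and -1.57 ± 0.23 for LPS + IFNγ minus IL-4 (adjusted p = 0.00315). A second Colec12 probe was at -0.64 from unstimulated cells (adjusted p = 0.116).

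Lrp1, a large endocytic receptor that binds C1q among many ligands, had 4.98, 4.40 and 4.80 in LPS + IFNγ replicates 1 to 3, the last 2 undetected, 5.69, 7.50 and 7.15 in the IL-4 replicates, and 6.80, 7.78 and 6.92 in the unstimulated replicates. It fell by 2.44 on the log2 scale with LPS + IFNγ against unstimulated cells (limma adjusted p = 0.0102), and a slide block took it to -2.22 (adjusted p = 0.0853). Against IL-4 cells the difference was -2.05 ± 0.48 (adjusted p = 0.0226).

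Fcna, which encodes the lectin pathway recognition protein ficolin A, had 5.99, 6.15 and 5.72 in LPS + IFNγ replicates 1 to 3, the second of these undetected, and 8.64, 6.92 and 7.87 in the IL-4 replicates. In unstimulated replicates 1 to 3 it had 6.78, 6.61 and 7.26. LPS + IFNγ minus IL-4 was -1.86 ± 0.41 (limma adjusted p = 0.0181). Against IL-4 cells the calls of Lrp1 and Fcna held in 14 and 17 of 22 alternatives. For Lrp1 the adjusted p was 0.0912 without IL-4 replicate 2, 0.0973 without IL-4 replicate 3 and 0.0502 without LPS + IFNγ replicate 3. For Fcna it was 0.0721 without IL-4 replicate 3 and 0.054 without LPS + IFNγ replicate 3. Processing ended them too: for Lrp1 the adjusted p was 0.0628 with no background correction, 0.067 with no filter and 0.0525 in the deposited log2 table, for Fcna it was 0.05 with no filter, and within slide 1 alone it was 0.504 for Lrp1 and 0.514 for Fcna. When undetected values were lifted to their array's detection limit, none of these calls held: Colec12 was at -1.73 from unstimulated cells (adjusted p = 0.0907) and Lrp1 at -1.42 (adjusted p = 0.238), and from IL-4 cells Fcna was at -1.46 (adjusted p = 0.117), Colec12 at -0.70 (adjusted p = 0.416) and Lrp1 at -1.03 (adjusted p = 0.341). On the weak array the raised value is 7.34, above most of the values compared.

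Complement receptors 3 and 4 bind C3 fragments and share the Itgb2 chain. Itgam, the alpha chain of receptor 3, had 7.92, 10.01 and 7.40 in LPS + IFNγ replicates 1 to 3, 7.41, 6.35 and 6.79 in the IL-4 replicates, and 8.82, 6.88 and 8.14 in the unstimulated replicates. Its differences from unstimulated cells were 0.50 with LPS + IFNγ (limma adjusted p = 0.67) and -1.09 with IL-4 (adjusted p = 1), and LPS + IFNγ replicate 2 was above every other array. Itgb2 had 8.27, 4.50 and 8.38 in LPS + IFNγ replicates 1 to 3, the second undetected, 6.91, 8.26 and 7.47 in the IL-4 replicates, and 7.53, 7.84 and 8.16 in the unstimulated replicates. Its differences were -0.79 (adjusted p = 0.598) and -0.29 (adjusted p = 1). Itgax, the alpha chain of receptor 4, was not kept: 1 of its 2 probes was detected on IL-4 replicates 2 and 3, the other on IL-4 replicate 2 alone.

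**Figure D5:**
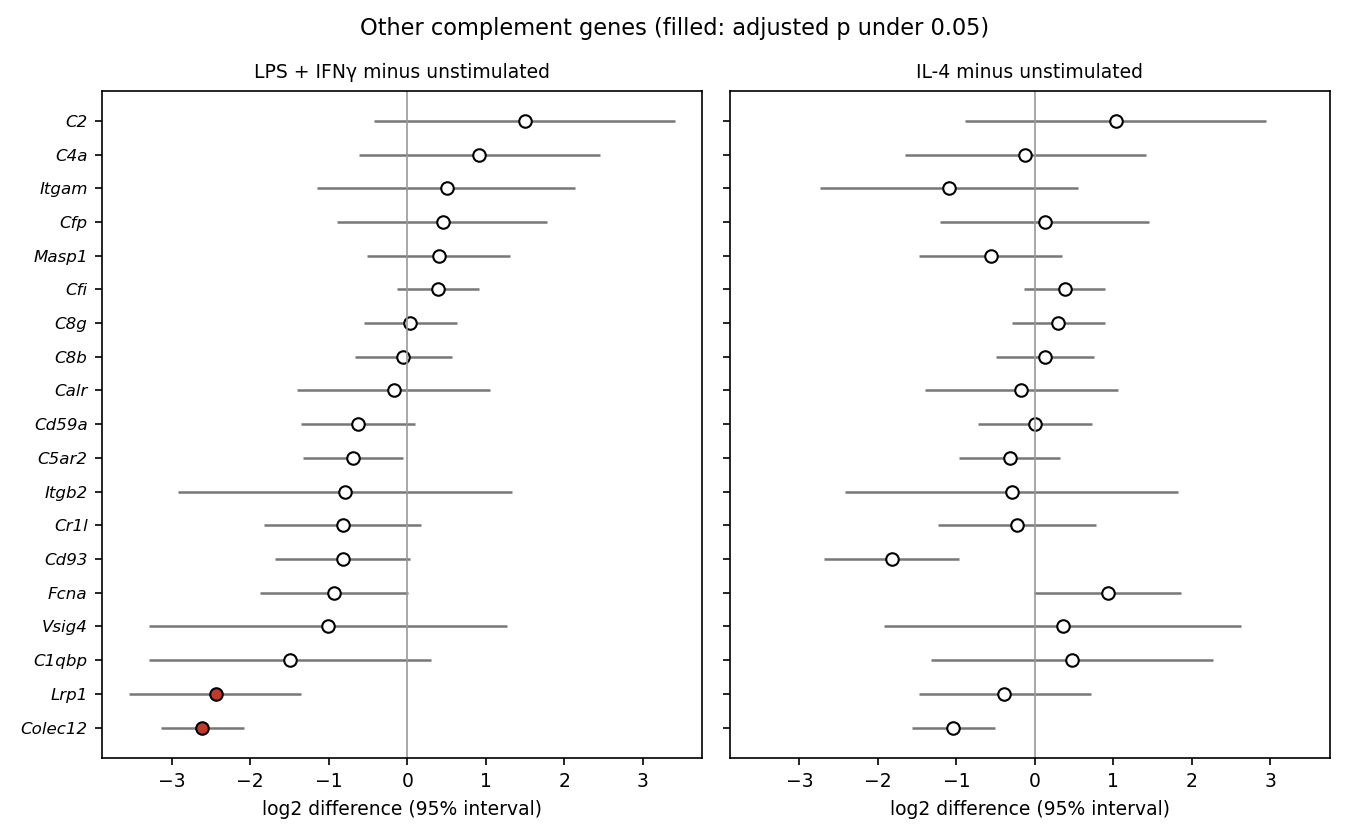
Log2 difference (points, filled where limma's adjusted p is under 0.05) with 95% interval (lines) for the 19 other complement genes kept, LPS + IFNγ minus unstimulated on the left and IL-4 minus unstimulated on the right. On the left Colec12 at -2.61 and Lrp1 at -2.44 passed and C2 at 1.50 did not, and on the right 0 passed.

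The genes whose log2 values followed each member most closely over the 9 arrays were picked by the highest Pearson correlation among 9120 genes, as a description without a test. For Serping1 they were the chemokine gene Cxcl9 (r = 0.998), Ublcp1 (0.997) and the guanylate-binding protein gene Gbp2b (0.997). For Cfb they were the MHC class I gene H2-T23 (0.975), Wdfy2 (0.974) and Mtf1 (0.968). For C1qa they were Tspyl3 (0.976), Gstp1 (0.972) and Rnf113a1 (0.972), for C1qb Itgb1bp1 (0.984), Tssc4 (0.977) and Naa60 (0.977), and for C1qc Gstp1 (0.988), Fam53b (0.978) and Gna15 (0.977). The 9 arrays share 3 groups and 1 weak array, and all of these correlations carry both.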

How the data were processed

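RNA of 9 samples was measured on Illumina bead arrays, 1 array per sample. The authors deposited, per the file headers, a linear intensity for every probe on each array, neither background-subtracted nor scaled between arrays, each with a detection p-value that sets the probe against background. They also deposited a table of log2 values, which set against the intensities were quantile-normalized with a shift between the 2 slides removed. The submitters' processing notes name Partek, whose role and version are not given in the sources used here.

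All tests started from the intensities. In R 4.3.3 with limma 3.58.1, background was corrected (normexp, with control-probe parameters estimated by way of the detection p-values and an offset of 16), followed by log2 transformation and quantile normalization. Probes detected (p under 0.05) on at least 3 of 9 arrays were kept, 16895 of 45281. A linear model of the 3 groups with no covariate was fitted with limma's empirical Bayes, Benjamini-Hochberg adjustment ran over all kept probes within a comparison, and the threshold was 0.05. The procedure was tested on simulated data with independent noise of equal scale on every array. Those data held no weak array, slide shift or detection limit, so the test does not cover these features. The number of arrays limits the precision. Symbols came from the platform annotation (34885 probes with 1 symbol, 18 with several, 10378 with none), and the kept probe of highest mean stood for its gene. A gene undetected on all arrays of the lower group is given as "at least N-fold", with the lower group raised to the lowest detected value of each array. Such a bound holds for the background correction used and is no floor under other processing.

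Named genes were every member, the other complement genes that passed in a comparison, Itgam, Itgax and Itgb2, and the 3 genes most like each of 5 members. C2 and C4a, which lie outside this rule, were added after their values were seen. The members and lists were chosen with earlier results of these data known. Equal replicate numbers were checked as pairs by the correlation across probes of deviations from the group mean. It was 0.366, 0.427 and 0.30 for IL-4 and unstimulated arrays. For LPS + IFNγ it was -0.005, -0.041 and -0.033 with unstimulated arrays, and -0.115, -0.068 and 0.068 with IL-4 arrays. The main tests were not paired in any comparison. For IL-4 against unstimulated cells a replicate block, and for some members the differences by pair, are given beside them. Alternatives were no background correction, an offset of 50, median centring, no filter or a filter of detection on all 9 arrays, slide as a fixed or random block, each slide alone, a replicate block, array weights, the deposited log2 table, undetected values raised, and each array left out. Promoter sequences came from RefSeq (GRCm38.p6).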

Additional observations from a re-analysis of the deposited data

How the results depend on the processing

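In LPS + IFNγ cells against unstimulated cells, where 1 member and 2655 probes passed, Serping1 stayed past the threshold in 21 of 22 alternatives. The exception was median centring, with 0 members (1 at an unadjusted p under 0.05) and 1390 probes. That scaling put the median of all probes at -0.83, against -0.22, and left 2.16% of passing probes higher, against 33.9%. In LPS + IFNγ against IL-4 cells it gave 0 members and 1321 probes, against 1 and 2463, with 2.8% higher, against 33.2%, and a median of -0.87. All 7 members tested kept their direction in LPS + IFNγ against unstimulated cells under every alternative that tested them. Members passing in that comparison and in LPS + IFNγ against IL-4 cells numbered 5 and 3 with array weights (6165 and 6272 probes), 3 and 2 with a replicate block, 3 and 3 with undetected values raised (2268 and 2007 probes), 3 and 3 with slide as a block and the weak array left out (3851 and 4478 probes), and 3 and 3 with LPS + IFNγ replicate 2 and IL-4 replicate 1 left out (6022 and 5339 probes). The replicate block let C1qa (-1.42, limma adjusted p = 0.0332) and C1qc (-1.03, adjusted p = 0.0409) pass against unstimulated cells and C1qc (-0.98, adjusted p = 0.049) against IL-4 cells, with 2309 and 2106 probes passing. The LPS + IFNγ arrays showed no joint deviation with arrays of equal number. The weak array enters those deviations, so the check cannot decide whether the numbers are pairs. A random slide block gave 2 members, C1qa and Serping1, and 3553 probes against unstimulated cells, and a fixed one 981 probes. The 5 members with array weights were C1qa and C1qc, lower, and C4b, Cfb and Serping1, higher. Against IL-4 cells the 3 were C4b, Cfb and Serping1. Raising undetected values set Cfb and C4b on the weak array to 7.34, above every measured value of either gene. That setting therefore cannot show that they rose. Detection on all 9 arrays removed Serping1, Cfb, C4b and C5ar1 from the test, let C1qa pass (adjusted p = 0.0446; 1597 probes), and gave 0 members and 1523 probes against IL-4 cells. Slide 2 alone gave 3 members and 3381 probes against unstimulated cells, and slide 1 alone 0 members and 0 probes against IL-4 cells in limma's test (1 and 1746 at an unadjusted p under 0.05). In IL-4 against unstimulated cells 0 members passed under every alternative run, and the 10 probes became 387 with array weights, 26 with the deposited log2 table, 61 with both arrays left out, 15 and 14 with no background correction or an offset of 50, 14, 4 and 6 with slide as a random block, a fixed block or a fixed block without the weak array, 4 on slide 2 alone, 5 with median centring or the replicate block, 7 with no filter, 11 with detection on all 9 arrays, and 0 with undetected values raised (463 at an unadjusted p under 0.05). Leaving out 1 array at a time gave 1 to 3 members and 1490 to 5314 probes for LPS + IFNγ against unstimulated cells, 0 members and 3 to 44 probes for IL-4 against unstimulated cells, and 1 to 3 members and 1203 to 5005 probes for LPS + IFNγ against IL-4 cells. The most passed without LPS + IFNγ replicate 2, the array on which only probes above 7.34 could be measured. The cause of these changes was not tested.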
